A study of Mus musculus with 16 samples.

Results

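The comparison asked which transcripts of mouse peritoneal macrophages (PMs) answered LPS differently when the adapter protein ADAP was absent. For each gene, the input reads on its annotated peaks were added up. The LPS response of Adap-/- PMs (LPS minus mock) minus the LPS response of WT PMs was then tested in 1 fit. This value, called the response difference here, is on the log2 scale. A response difference below 0 means less induction, or more repression, in Adap-/- PMs. It used the 8 input libraries among the 16 libraries of the study, and 4742 of the 4943 genes with a peak had enough reads to be tested.

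PMs were lavaged 3 days after an injection of 3% thioglycolate from WT and Adap-/- mice of the C57BL/6 background, described in the methods as sex-matched littermates 6 to 8 weeks old. They were left mock-treated or were given 1 μg/ml LPS for 6 h, which makes 4 groups: WT mock, WT LPS, Adap-/- mock and Adap-/- LPS. Each group had 2 replicates, and each replicate had an input library (RNA fragments sequenced directly) and an IP library (fragments captured with an m6A antibody). The labels do not say whether replicates came from separate animals, so the p-values measure a spread between samples that may be technical. Adap-/- is a deletion carried by the whole animal, so an effect from other cells before lavage cannot be told apart from one within the macrophage. Input libraries held 2121313 to 4325961 counted reads (median 2883046.5).

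LPS is sensed by TLR4, which signals through MyD88 to NF-kB and through TRIF to IRF3. The second branch induces interferon beta, which acts back on the macrophage and switches on interferon-stimulated genes through STAT and IRF factors. ADAP, encoded by Fyb1, is an adapter of blood cells that links receptors to integrins and the actin skeleton.

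Fyb1 (ENSMUSG00000022148, chromosome 15) had 244 and 257 CPM in WT mock, 349 and 377 in WT LPS, 46.7 and 36.9 in Adap-/- mock, and 41.5 and 35.7 in Adap-/- LPS libraries. CPM here are counts scaled to a common library size with TMM, the same for all levels below. All 4 Adap-/- libraries lay below all 4 WT libraries. On the coding peak at chr15:6609828-6610128 of GRCm39, the build of the deposited coordinates, Adap-/- input libraries had 0 or 1 read and WT libraries had 502 to 618. Nearly all Fyb1 reads of the Adap-/- libraries (93 to 171 in each) lay on its last peak, which is shared with the model ENSMUSG00000089647. The response difference of Fyb1 was −0.64 (standard error 0.18, adjusted p = 0.107) and rests on that shared peak in Adap-/- PMs; the 2 tested peaks of Fyb1 alone gave −0.27 (standard error 2.34) and 0.08 (standard error 0.64). Among 19 tested genes within 20 Mb of Fyb1, 0 were called for the response difference by edgeR (1.64% of all tested genes).

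Macrophage genes were abundant in every library. Cd68, a lysosomal protein of macrophages, had 3573 to 4363 CPM over the 8 libraries, and Spi1, the factor that specifies myeloid cells, had 1067 to 1577. Not all identity genes were this steady. Ctsd, the most abundant of them, had 23674 and 26007 CPM in WT mock and 18117.5 and 17647 in Adap-/- mock libraries. After LPS it had 12960 and 12922 CPM in WT and 9260 and 9624 in Adap-/- libraries. Of 15 identity genes listed, 12 were tested and 0 were called for the response difference by edgeR, DESeq2 or limma (1.64% of all genes by edgeR). By edgeR 3 of them had an unadjusted p below 0.05 (12.7% of all genes). Between the genotypes after LPS, 5 of the 12 were called lower and 1 higher in Adap-/- PMs (9.78% and 6.03% of all genes). The median genotype difference of the 12 after LPS was −0.30. No gene on the B cell, T and NK cell, or eosinophil and mast cell lists had a peak. Of 15 markers of resident peritoneal macrophages, 3 were tested (Cd93, Csf1r and Adgre1), with a median response difference of 0.30. Neutrophil markers were tested through Csf3r alone, which is also expressed by macrophages (−0.16), and dendritic cell markers through 2 genes (median −0.07). Fibroblast and mesothelial markers gave 3 tested genes with a median of 0.01. Kdm5d, a gene of the Y chromosome, had 6.51 to 13.7 CPM in the 8 libraries.

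Of 10 markers of recruited monocytes listed, 3 were tested (Hp, Vcan and Cx3cr1), and their summed level was 541 and 555 CPM in WT mock, 1104 and 1482 in Adap-/- mock, 834 and 900 in WT LPS, and 806 and 925 in Adap-/- LPS libraries. The mock difference in this sum came from Hp, haptoglobin, the 1 of the 3 called higher in Adap-/- mock PMs (8.71% of all genes). Hp had 438 and 444 CPM in WT mock and 992 and 1380 in Adap-/- mock libraries. The defining monocyte genes Ly6c2 and Ccr2 were not among the tested genes. The response differences were −0.82 for Hp, −1.13 for Vcan and −0.35 for Cx3cr1. By edgeR 0 of these 3 were called (1.64% of all genes), with all 3 at an unadjusted p below 0.05 (12.7% of all genes). DESeq2 called Hp lower and limma called 0. In such bulk samples, fewer cells of a type and less RNA per cell cannot be told apart, and the part of these markers in the results below was not tested.

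The response difference passed the threshold (adjusted p below 0.05, edgeR quasi-likelihood test with Benjamini-Hochberg adjustment) for 78 genes, which is 1.64% of the genes tested. Adap-/- PMs had the lower response for 61 of them (1.29%) and the higher response for 17 (0.358%). At an unadjusted p below 0.05 there were 602 genes (12.7%). The median over all tested genes was −0.02. A response difference above 2-fold in size was called for 36 genes (0.759%), 28 lower (0.59%) and 8 higher (0.169%). For every called gene, all 4 pairings of an LPS with a mock library gave responses in 1 genotype that lay beyond those of the other, which held for 26.9% of all tested genes.

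Leaving out single libraries changed the count from 78 to between 29, without Adap-/- mock replicate 2, and 127, without WT mock replicate 1. All 78 genes had the same direction in each of 18 alternative fits that gave a value, and 21 were past the threshold in each fit that gave an adjusted p (18 lower and 3 higher). The scatter of the responses shows the lower group to the right of the line of equal responses, mostly at induced genes, with a few such as Kcnn4 (0.53 in WT PMs) little induced.

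**Figure D1:**
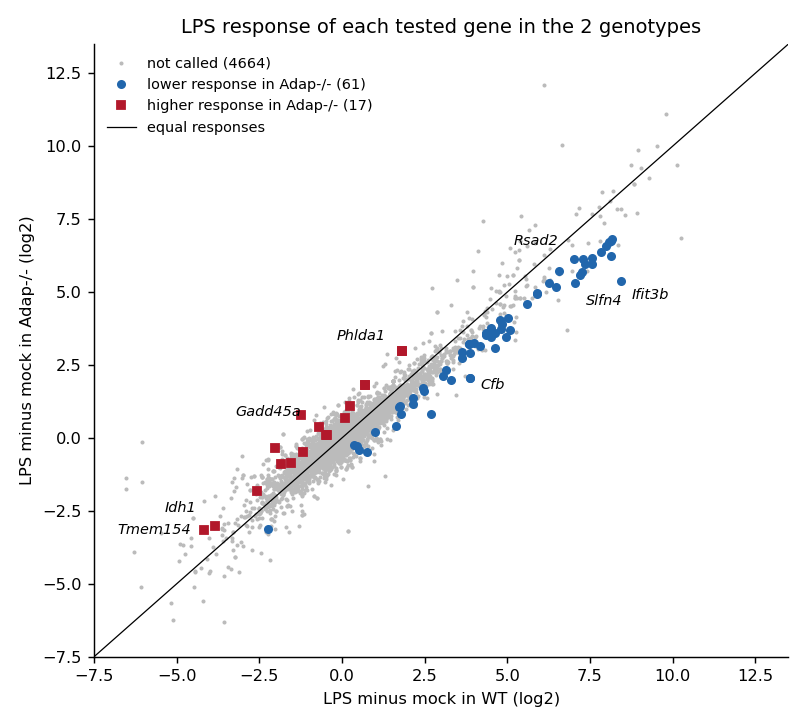
LPS response (log2, LPS minus mock) of each of the 4742 tested genes in WT PMs (horizontal axis) and Adap-/- PMs (vertical axis), with 61 genes of lower response as blue circles, 17 of higher response as red squares and all others grey. The line marks equal responses in both genotypes, and several grey points far from it have a group with few reads.

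The 61 genes with the lower response were mostly LPS-induced genes. In WT PMs, 60 rose and 1, Fbxo32, fell (59.2% of all tested genes changed, 30.2% rising and 28.9% falling), with a median of 4.49. In Adap-/- PMs, 55 rose and 4 fell (28.5% and 26% of all genes), with a median of 3.51. The response difference ran from −3.04 to −0.60, with a median of −0.98. Cfb shares peaks with Gm20547, Cxcl16 with Zmynd15, and Ms4a6c with ENSMUSG00000099757, so these reads count more than once among the 61.

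Much of this difference was already present in the mock libraries. Without LPS, 45 of the 61 genes were higher in Adap-/- than in WT PMs and 0 were lower (8.71% and 8.65% of all genes), with a median genotype difference of 0.76. After LPS, 27 were lower and 5 were higher in Adap-/- PMs (9.78% and 6.03% of all genes), with a median of −0.24. These 4 contrasts share their libraries with the response difference, so they describe it and give no separate evidence for it. On the linear scale, where the increase in CPM is compared in place of the fold, 13 of the 61 genes had a difference above 0; 12 of them had a larger increase in Adap-/- PMs and Fbxo32 had a smaller decrease. The plot of the genotype differences before and after LPS spreads the called genes over both axes.

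**Figure D2:**
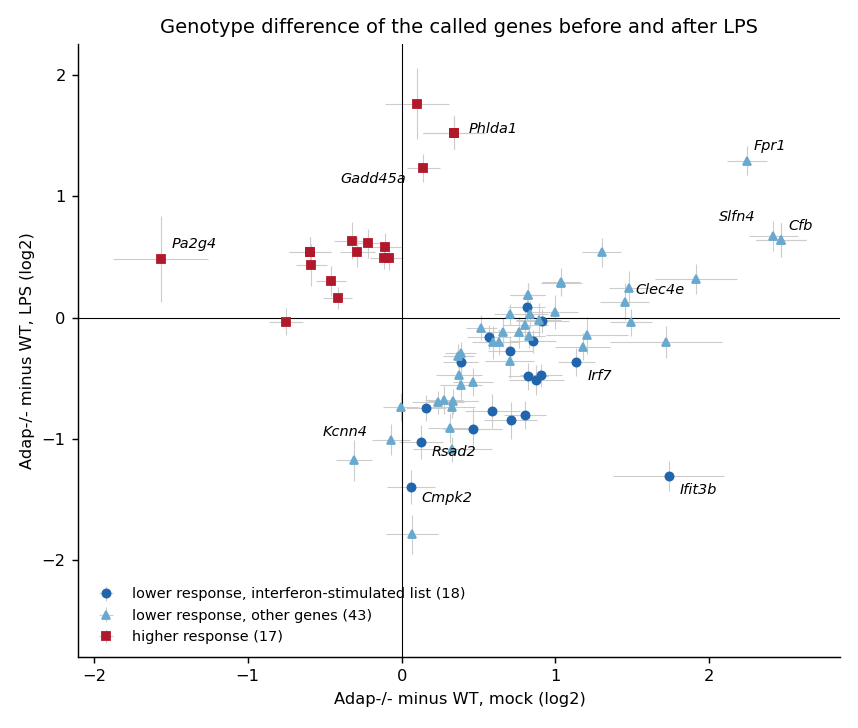
Genotype difference (log2, Adap-/- minus WT) of the 78 called genes in mock PMs (horizontal axis) and LPS-treated PMs (vertical axis), with standard errors as grey bars; dark circles are 18 interferon-stimulated genes, light triangles the 43 other genes of lower response and red squares the 17 of higher response. Cfb, Slfn4 and Fpr1 lie far to the right, with a higher mock level in Adap-/- PMs, and Cmpk2 and Rsad2 lie near 0 on the horizontal axis and below 0 after LPS.

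Interferon-stimulated genes gave the largest number of calls of any list. Of 56 listed, 50 were tested, 18 had a lower response in Adap-/- PMs and 0 a higher one (1.29% and 0.358% of all tested genes), and 31 had an unadjusted p below 0.05 (12.7% of all). The median response difference was −0.59, against −0.02 over all tested genes. In mock PMs 15 members were higher and 6 lower in Adap-/- (8.71% and 8.65% of all genes), and after LPS 0 were higher and 22 lower (6.03% and 9.78%). Their summed level was 6413 and 9213 CPM in WT mock, 7851 and 8023 in Adap-/- mock, 319485 and 318918 in WT LPS, and 221864 and 215294 in Adap-/- LPS libraries. The list was thus lower in both Adap-/- LPS libraries than in both WT LPS libraries, while the mock libraries overlapped. In the omissions of 1 library, 10 to 20 members were called lower. Members were called higher only without WT mock replicate 1: Gbp3 (0.58), Gbp5 (1.27), Gbp7 (0.89), Igtp (0.81), Irgm1 (0.63), Irgm2 (0.73), Iigp1 (2.21), Ifi47 (0.76), Tgtp2 (2.93) and Irf1 (0.87). The shares of all genes called lower or higher in these fits are not given here.

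The Ifit proteins bind viral RNA and block its translation, and their genes lie side by side on chromosome 19. Ifit3b (ENSMUSG00000062488) had 2.30 and 2.96 CPM in WT mock, 9.19 and 8.49 in Adap-/- mock, 955 and 874 in WT LPS, and 427 and 310 in Adap-/- LPS libraries. The gene was thus higher in Adap-/- PMs before LPS and lower after it, with no overlap in either state. Its response difference was −3.04 (standard error 0.37, adjusted p = 0.00035 from edgeR), and its 4 peaks ranged from −3.88 to −2.41. The WT mock libraries held only 9 and 11 reads of Ifit3b, so its fold is the least precise of the family.

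Ifit3 (ENSMUSG00000074896) had 47.8 and 59.0 CPM in WT mock, 94.7 and 91.5 in Adap-/- mock, 8046 and 7613 in WT LPS, and 4567 and 4393 in Adap-/- LPS libraries. It followed the order of Ifit3b at a higher level, with the genotypes changing places after LPS. Its response difference was −1.61 (standard error 0.18, adjusted p = 0.000261). Ifit3 and Ifit3b are near-identical copies, so how reads were divided between them is uncertain. Ifit1 and Ifit2, chosen after their values were seen, had response differences of −1.56 and −1.39; that of Ifit2 lost its call without Adap-/- LPS replicate 2 or without Adap-/- mock replicate 2. Their WT mock replicates were apart, with 61.6 and 95.7 CPM for Ifit1 and 114 and 199 for Ifit2. Leaving out WT mock replicate 1 or 2 gave −1.26 or −1.89 for Ifit1 and −1.02 or −1.82 for Ifit2.

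Irf7, Cmpk2 and Rsad2 were chosen after their values were seen, to show different ways to a lower response. Irf7, the factor that amplifies type I interferon production, had 415 and 392 CPM in WT mock, 888 and 887 in Adap-/- mock, 12587 and 12395 in WT LPS, and 10327 and 9072 in Adap-/- LPS libraries. Its mock level in Adap-/- PMs was thus clearly above WT, and its LPS level somewhat below. Irf7 had a response difference of −1.50 (standard error 0.17, adjusted p = 0.000261), with a genotype difference of 1.14 in mock and −0.36 after LPS.

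Cmpk2, a mitochondrial nucleotide kinase next to Rsad2 on chromosome 12, had 89.5 and 117 CPM in WT mock, 119 and 96.6 in Adap-/- mock, 23630 and 23802 in WT LPS, and 8955 and 9013 in Adap-/- LPS libraries. Mock libraries of both genotypes overlapped, and the whole difference appeared after LPS. The response difference of Cmpk2 was −1.46 (standard error 0.21, adjusted p = 0.00166). Rsad2, which encodes the antiviral enzyme viperin, had 305 and 380 CPM in WT mock and 381 and 366 in Adap-/- mock libraries, then 53536 and 52719 in WT LPS and 25973 and 26165 in Adap-/- LPS libraries. It was the most abundant member of the list and showed the same order, with a response difference of −1.15 (standard error 0.20, adjusted p = 0.00589).

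**Figure D3:**
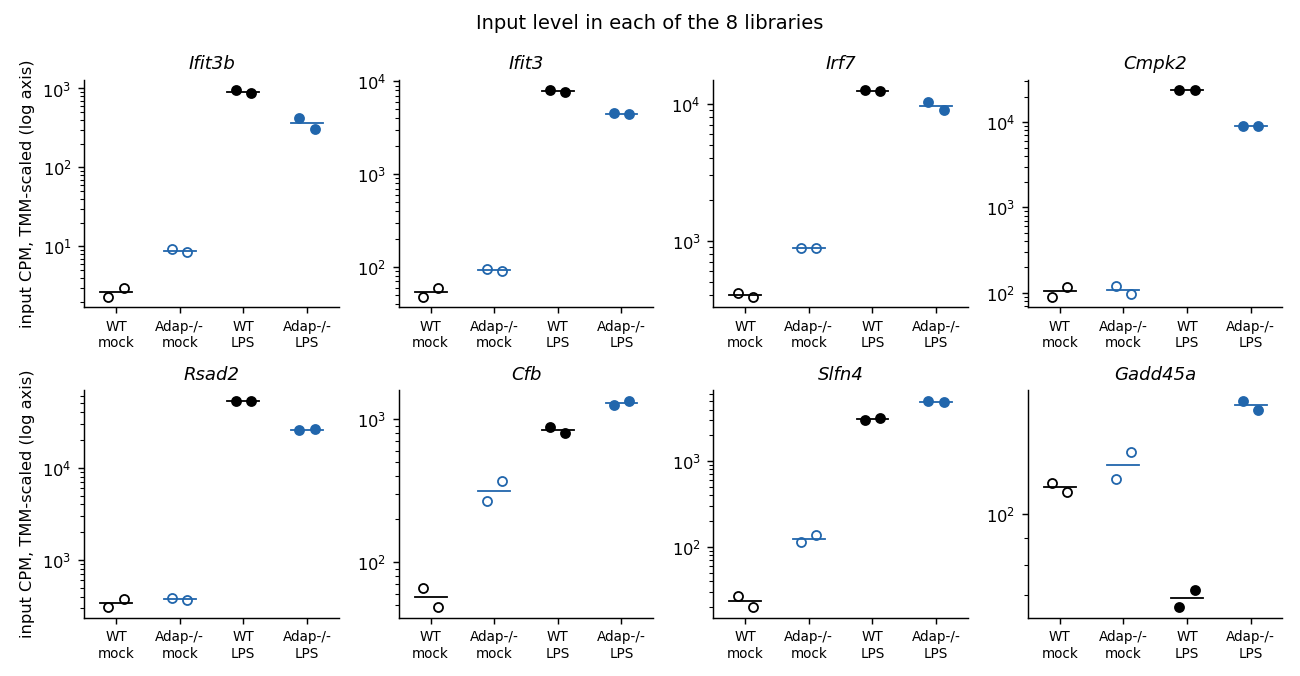
Input level (TMM-scaled CPM, log axis, scale differs by panel) of 8 genes in each of the 8 libraries, with WT in black, Adap-/- in blue, mock as open and LPS as filled circles; short lines are group means. Ifit3b, Ifit3 and Irf7 are higher in Adap-/- mock and lower in Adap-/- LPS libraries than in WT, Cmpk2 and Rsad2 differ after LPS, Cfb and Slfn4 are higher in Adap-/- in both states, and Gadd45a fell in WT and rose in Adap-/- PMs.

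Ifih1, which encodes the RNA sensor MDA5, had 21.7 and 23.2 CPM in WT mock, 44.9 and 39.3 in Adap-/- mock, 726 and 780 in WT LPS, and 537 and 545 in Adap-/- LPS libraries. The difference between the responses was −1.38 (standard error 0.17, adjusted p = 0.000295). Ddx58, the gene of the RNA sensor RIG-I, gave −1.05, with a genotype difference of 0.85 in mock and −0.20 after LPS, the latter not called (adjusted p = 0.2). Other called effectors were Mx1 (−1.36), Oasl1 (−1.31) and Isg15 (−0.91), whose product is conjugated to proteins. The call was lost without Adap-/- mock replicate 2 for Mx1, without Adap-/- mock replicate 1 for Ddx58, and without Adap-/- LPS replicate 1 or either Adap-/- mock replicate for Isg15. These genes were chosen after their values were seen.

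The Ifi200 family on chromosome 1 includes sensors of DNA. It was gathered after its values were seen. Of its 11 tested members, 5 were called lower and 0 higher (1.29% and 0.358% of all genes); Ifi204, Ifi207, Ifi208, Ifi211, Aim2 and Mndal were not called. Ifi213 (ENSMUSG00000073491) had 5.12 and 1.35 CPM in WT mock, 12.9 and 8.98 in Adap-/- mock, 973 and 903 in WT LPS, and 848 and 786 in Adap-/- LPS libraries. The response difference was −1.92 (standard error 0.39, adjusted p = 0.0182), and the genotype difference was 1.72 in mock and −0.20 after LPS. Its WT mock libraries held 20 and 5 reads, and leaving out the first or the second gave −3.16 or −1.26. Its call was lost without Adap-/- mock replicate 1 (adjusted p = 0.12), without WT mock replicate 2 (0.0582) and when only its most covered peak was used (0.472). Ifi206 (−1.42), Ifi205 (−1.39), Ifi203 (−0.98) and Ifi209 (−0.94) were the others called and were named after their values were seen. The calls of Ifi203 and Ifi209 were lost without either Adap-/- LPS replicate, Adap-/- mock replicate 2 or WT LPS replicate 2, that of Ifi209 also without Adap-/- mock replicate 1, and that of Ifi206 with its most covered peak alone. The family members resemble each other closely, so the assignment of reads among them is uncertain.

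Promoters of these genes were read from the RefSeq promoter table of GRCm38.p6, 250 bases before to 50 after each start, and matched by symbol. The interferon-stimulated response element (ISRE), the gamma-activated site (GAS) and the kappaB element were searched on both strands; matches of different elements may share bases. Of all 27025 genes with a promoter searched, 3.99% held an ISRE, 9.55% a GAS and 9.55% a kappaB match. Among 3024 tested genes that matched, of 4289 sought, these were 5.29%, 8.8% and 13.5%. Of the 18 called interferon-list genes, 17 matched the table, and 11 of them (64.7%) held an ISRE, 1 (5.88%) a GAS and 5 (29.4%) a kappaB match. Irf7, Cmpk2, Ifit2, Mx1, Oasl1, Slfn1 and Rnf213 had no ISRE found, among them the gene that did not match the table. Of the 32 uncalled members 25 matched, and 17 of these held an ISRE, 11 a GAS and 6 a kappaB match. Outside the interferon list, 29 of the 43 genes with the lower response matched, and 3 held an ISRE. Less than 80% of the uncalled members, of the genes outside the list and of all tested genes matched by symbol, so a comparison of shares between called genes and these sets is void. Windows of 30 bases are printed for 8 called genes that held an ISRE match, to show the element itself. Of these, Ifi213 and Ifi206 are not on the interferon list. Windows run 5′ to 3′ on the gene's strand with 1 ISRE match in capitals. The Isg15 window holds a second match that overlaps it, and a match describes letters and is no site of binding.
Ifit3: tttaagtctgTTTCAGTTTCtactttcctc
Ifit3b: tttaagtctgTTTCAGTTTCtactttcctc
Ifit1: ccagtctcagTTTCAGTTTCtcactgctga
Isg15: aaaggaaaccGAAACAGAAAatagctctgg
Rsad2: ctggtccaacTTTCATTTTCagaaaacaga
Ifih1: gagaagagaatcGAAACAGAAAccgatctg
Ifi213: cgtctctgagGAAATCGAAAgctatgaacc
Ifi206: tgtctctgagGAAATCGAAAgctatgaacc

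The windows of Ifit3 (chr19:34583397-34583426, plus strand) and Ifit3b (chr19:34607793-34607822, plus strand) were the same 30 bases, and Ifit1 lay at chr19:34640794-34640823 (plus strand). Isg15 lay at chr4:156200865-156200894, Rsad2 at chr12:26456553-26456582, Ifih1 at chr2:62646206-62646235, Ifi213 at chr1:173599326-173599355 and Ifi206 at chr1:173491339-173491368, all on the minus strand. These positions are of GRCm38.p6 and were not compared with the deposited coordinates, which are of GRCm39.

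The guanylate-binding proteins and immunity-related GTPases coat vacuoles that hold microbes and are induced by interferon gamma as well as by type I interferon. A list of 15 of them was made after their values were seen; 11 of these are also on the interferon list. Their median response difference was 0.55, and edgeR, DESeq2 and limma each called 0 of them (1.64% of all genes by edgeR). By edgeR 2 had an unadjusted p below 0.05 (12.7% of all genes), so these counts do not set the family apart from all genes. Their summed level was 1762 and 3508 CPM in WT mock, 1815 and 1896 in Adap-/- mock, 85578 and 83636 in WT LPS, and 72351 and 68152 in Adap-/- LPS libraries. WT mock replicate 2 had the highest sum of the 4 mock libraries. After LPS 13 of the 15 were below 0 in Adap-/- minus WT, as were 2424 of all 4742 tested genes. Of the 15, 0 were called lower or higher after LPS (9.78% and 6.03% of all genes). In mock PMs 4 were called lower and 0 higher (8.65% and 8.71% of all genes).

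Tgtp2, a GTPase whose 3 peaks are all shared with a neighbour, had the largest response difference named from this family. It had 23.02 and 97.3 CPM in WT mock, 8.66 and 8.98 in Adap-/- mock, 2545 and 2529 in WT LPS, and 1892 and 1596 in Adap-/- LPS libraries. In fold, the WT mock replicates differed more from each other than the LPS libraries of the 2 genotypes did. Its response difference was 2.21 (standard error 0.58, adjusted p = 0.0731). Gbp2, the most abundant of the family, had 685 and 1267 CPM in WT mock and 781 and 890 in Adap-/- mock libraries, with a response difference of −0.05.

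The response difference of this family depended on which WT mock library was used. Without WT mock replicate 1 the median of the 15 was 0.89, and without WT mock replicate 2 it was −0.27. In the other 6 omissions the median was 0.48 to 0.64. Relative to WT mock replicate 1, the median level of the GTPases was higher by 1.14 in WT mock replicate 2 and by 0.00 and −0.01 in the Adap-/- mock replicates. The called interferon-list genes had 0.31, 0.83 and 0.88, but they were chosen by a test on these same libraries, so the mock pattern follows in part from the choice. The plot of mock levels shows both groups side by side. Of the 15 GTPase genes, 10 matched the promoter table, and 9 of these held an ISRE and 6 a GAS match. Windows with 1 ISRE match in capitals (that of Irgm1 holds a second, overlapping match) are shown for Gbp2 at chr3:142620594-142620623 (plus strand), Igtp at chr11:58199512-58199541 (plus strand), Irgm1 at chr11:48871425-48871454 (minus strand) and Tgtp2 at chr11:49064263-49064292 (minus strand) of GRCm38.p6.
Gbp2: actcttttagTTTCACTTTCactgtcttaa
Igtp: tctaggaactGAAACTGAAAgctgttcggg
Irgm1: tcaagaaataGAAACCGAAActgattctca
Tgtp2: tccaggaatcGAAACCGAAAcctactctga

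**Figure D4:**
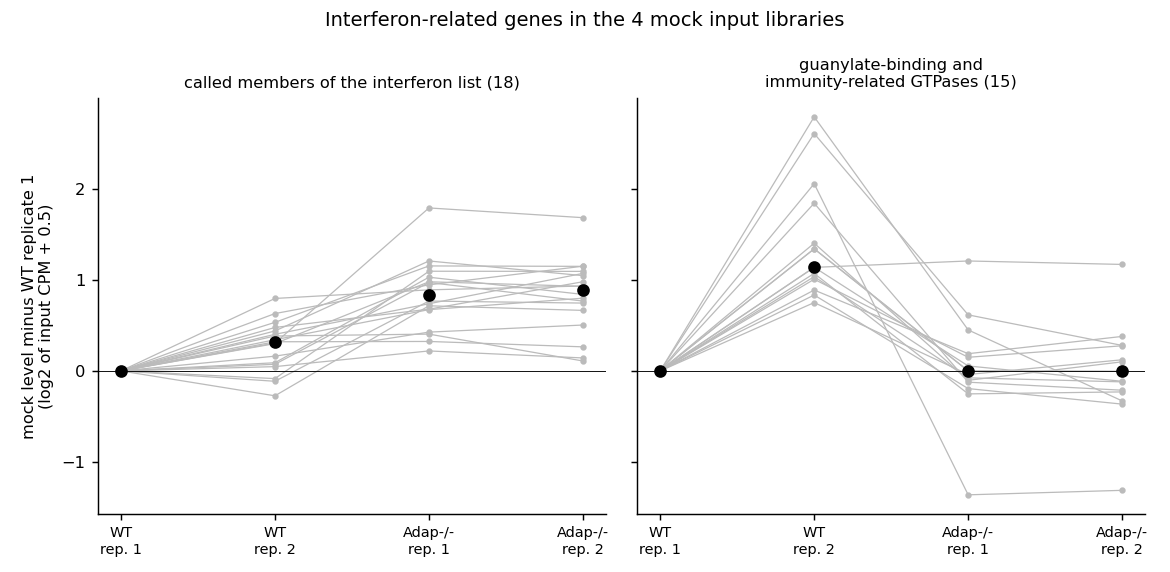
Level in each of the 4 mock input libraries relative to WT mock replicate 1 (log2 of CPM plus 0.5), for 18 called genes of the interferon list (left) and 15 GTPases (right); each grey line is a gene and black circles are medians. Medians of the called genes were 0.83 and 0.88 in Adap-/- and 0.31 in WT replicate 2, and those of the GTPases were 1.14 in WT replicate 2 and near 0 in Adap-/- libraries; the called genes were chosen by a test on these libraries.

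Of the 61 genes with the lower response, 5 were called higher in Adap-/- PMs after LPS: Cfb, Gm20547, Slfn4, Fpr1 and Slc25a37. Cfb (ENSMUSG00000090231), factor B of the alternative complement pathway, had 66.3 and 48.2 CPM in WT mock, 266 and 367 in Adap-/- mock, 878 and 794 in WT LPS, and 1259 and 1342 in Adap-/- LPS libraries. Both genotypes rose, and Adap-/- lay above WT throughout. The response difference was −1.83 (standard error 0.21, adjusted p = 0.000261), yet the increase in CPM was larger in Adap-/- by 205.4. Its peaks are shared with Gm20547, an overlapping model with the same counts and the same response difference of −1.83, so the reads count for both.

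Slfn4 (ENSMUSG00000000204), a member of the Schlafen family, had 26.9 and 19.7 CPM in WT mock, 113 and 136 in Adap-/- mock, 3021 and 3185 in WT LPS, and 5064 and 4847 in Adap-/- LPS libraries. Adap-/- libraries were again above WT libraries before and after LPS. Slfn4 had a response difference of −1.74 (standard error 0.20, adjusted p = 0.000261), and its 6 peaks lay between −2.03 and −1.44. Of 7 tested Schlafen genes, gathered after their values were seen, 4 were called lower and 0 higher (1.29% and 0.358% of all genes). The others called were Slfn1 (−0.94), Slfn9 (−0.94) and Slfn8 (−0.75), and Slfn2, Slfn3 and Slfn5 were not called; reads may be divided uncertainly among them. The calls of these 3 were lost without either Adap-/- LPS replicate, without either Adap-/- mock replicate and in other fits.

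Tarm1, an activating receptor of myeloid cells, had 7.67 and 2.96 CPM in WT mock, 21.8 and 18.9 in Adap-/- mock, 985 and 1048 in WT LPS, and 1293 and 1236 in Adap-/- LPS libraries. Its groups did not overlap in either state, although the mock levels rest on few reads and the genotype difference after LPS was not called (0.32, adjusted p = 0.101). The response difference was −1.60 (standard error 0.30, adjusted p = 0.0115), lost without Adap-/- mock replicate 1 (adjusted p = 0.0566). Leaving out WT mock replicate 1 or 2, with 30 and 11 reads, gave −2.43 or −1.07. Its 4 peaks ranged from −3.42 to 0.01.

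Among 28 tested phagocytic and pattern recognition receptors, 4 had the lower response and 0 the higher (1.29% and 0.358% of all genes), with 12 at an unadjusted p below 0.05 (12.7% of all) and a median of −0.31. Clec4e, the receptor Mincle for mycobacterial glycolipid, had 2586 and 2098 CPM in WT mock, 5521 and 7271 in Adap-/- mock, 24486 and 21493 in WT LPS, and 24568 and 25812 in Adap-/- LPS libraries. Mock levels were apart and LPS levels close together. The fit gave a response difference of −1.32 (standard error 0.22, adjusted p = 0.00494), lost without Adap-/- mock replicate 2 (adjusted p = 0.0601). The other 3 were Tlr3, the sensor of double-stranded RNA (−1.02), Fpr1, the receptor of formylated bacterial peptides (−0.95), and Tlr2 (−0.81), each named after its value was seen. Fpr1 had 128 and 109 CPM in WT mock and 508 and 615 in Adap-/- mock libraries, then 986 and 1003 in WT LPS and 2268 and 2616 in Adap-/- LPS libraries. Calls were lost without Adap-/- LPS replicate 1 or Adap-/- mock replicate 2 for Fpr1, without Adap-/- mock replicate 1 or with only the most covered peak for Tlr3, and for Tlr2 without either Adap-/- LPS replicate, Adap-/- mock replicate 2 or WT LPS replicate 2.

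Genes outside the interferon list that were lower after LPS with close mock levels were chosen after their values were seen. Cd69, an early activation antigen, had 5.37 and 6.47 CPM in WT mock and 6.30 and 8.49 in Adap-/- mock libraries, then 1207 and 1055 in WT LPS and 543 and 522 in Adap-/- LPS libraries. The fit gave −1.42 (adjusted p = 0.0162), lost without Adap-/- mock replicate 2, in limma and when only its most covered peak was used. Il15ra, which presents interleukin 15 to neighbouring cells, gave −1.07 with 529 and 494 CPM in WT LPS and 313 and 300.02 in Adap-/- LPS libraries. Kcnn4, a calcium-activated potassium channel, rose in WT PMs (126 and 154 CPM after LPS, from 97.5 and 96.7) and fell in Adap-/- PMs (74.5 and 63.8, from 94.0 and 91.0), with a response difference of −0.94. That of Kcnn4 lost its call without Adap-/- LPS replicate 2, WT LPS replicate 2 or either Adap-/- mock replicate.

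Fabp3, a fatty acid carrier chosen after its values were seen, ended at the same level in both genotypes. It had 43.7 and 47.4 CPM in WT mock, 122 and 134 in Adap-/- mock, 1231 and 1003 in WT LPS, and 1019 and 1159 in Adap-/- LPS libraries. The LPS libraries of the genotypes overlapped and the mock libraries did not, with a response difference of −1.53 (standard error 0.18, adjusted p = 0.000261). In all, 30 of the 61 genes with the lower response were on no list.

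Single members of other lists had the lower response. In the chemokine list, 2 of 11 tested genes were called lower and 0 higher (1.29% and 0.358% of all genes), with 3 at an unadjusted p below 0.05 (12.7% of all) and a median of −0.17. Ccl5, which attracts T cells and monocytes, had 250 and 190 CPM in WT mock, 398 and 480 in Adap-/- mock, 13307 and 12806 in WT LPS, and 13191 and 13748 in Adap-/- LPS libraries. Only its mock levels were apart, with a response difference of −0.95 (standard error 0.20, adjusted p = 0.0233). Cxcl16, whose single peak is shared with Zmynd15, gave −0.68. Both calls were lost without either Adap-/- LPS replicate, Adap-/- mock replicate 2 or WT LPS replicate 1, and that of Ccl5 also without WT LPS replicate 2, with adjusted p for Ccl5 of 0.0557 to 0.226 in these fits.

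Among 18 tested effector enzymes and M1 markers, 2 were lower and 0 higher (1.29% and 0.358% of all genes), with 4 at an unadjusted p below 0.05 (12.7% of all) and a median of −0.05. Cd40, the costimulatory receptor for CD40 ligand, had 54.2 and 74.1 CPM in WT mock, 82.4 and 83.7 in Adap-/- mock, 6324 and 5873 in WT LPS, and 4282 and 4486 in Adap-/- LPS libraries. It was apart in both states, in opposite directions, with a response difference of −0.85 (standard error 0.19, adjusted p = 0.0346). The genotype difference of Cd40 in mock PMs was not called by edgeR (0.37, adjusted p = 0.0958). The other was Acod1, which makes itaconate (−0.80, adjusted p = 0.0488), named after its value was seen. For both genes the call was lost without any 1 of the LPS or Adap-/- mock libraries, and for Acod1 also with the replicate block, with RLE scaling and with a higher read minimum.

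In signalling, 1 of 30 tested TLR4 and NF-kB genes was lower and 0 higher (1.29% and 0.358% of all genes), with 8 at an unadjusted p below 0.05 (12.7% of all) and a median of −0.04. It was Nfkbiz, an atypical IkB protein that drives secondary NF-kB genes, with 35.8 and 37.7 CPM in WT mock, 70.6 and 80.3 in Adap-/- mock, 780 and 741 in WT LPS, and 847 and 1003 in Adap-/- LPS libraries. In fold, its mock levels were apart by more than its LPS levels, with a response difference of −0.76 (standard error 0.17, adjusted p = 0.03). Of 16 tested genes of STAT signalling and SOCS feedback, 1 was lower and 0 higher (1.29% and 0.358%), with 2 at an unadjusted p below 0.05 (12.7%) and a median of 0.12. That gene, Jak2, the kinase of cytokine receptors, had 53.0 and 54.2 CPM in WT mock, 86.6 and 88.1 in Adap-/- mock, 648 and 670 in WT LPS, and 667 and 676 in Adap-/- LPS libraries. Its LPS levels nearly coincided, with a response difference of −0.68 (standard error 0.14, adjusted p = 0.0182). Both calls were lost in 6 of the 8 omissions, and that of Jak2 also with only its most covered peak. The adjusted p reached 0.234 for Nfkbiz and 0.119 for Jak2, both without Adap-/- mock replicate 2.

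In metabolism, 1 of 13 tested genes of glycolysis and HIF targets was lower and 0 higher (1.29% and 0.358% of all genes), with 4 at an unadjusted p below 0.05 (12.7% of all) and a median of −0.35. Slc2a6, a lysosomal sugar transporter, had 176 and 177 CPM in WT mock, 302 and 326 in Adap-/- mock, 2692 and 2510 in WT LPS, and 2303 and 2368 in Adap-/- LPS libraries. Its replicates were close in every group, and the response difference was −0.99 (standard error 0.14, adjusted p = 0.00179). Of 15 tested genes of unfolded protein and amino acid stress, 1 was lower and 0 higher (1.29% and 0.358%), with 5 at an unadjusted p below 0.05 (12.7%) and a median of 0.05. It was Nupr1, a small stress-induced nuclear protein, with 25.3 and 26.1 CPM in WT mock, 41.5 and 48.3 in Adap-/- mock, 148 and 136 in WT LPS, and 147 and 125 in Adap-/- LPS libraries. Nupr1 had a response difference of −0.87 (standard error 0.19, adjusted p = 0.0287), and its call was lost with its most covered peak alone and in every omission but that of Adap-/- LPS replicate 1, with adjusted p from 0.05002 to 0.255. Among 8 tested complement genes, Cfb was the 1 called lower and 0 were higher (1.29% and 0.358%), with 3 at an unadjusted p below 0.05 (12.7%) and a median of −0.13.

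The 17 genes with the higher response were more varied. Some of them share peaks, so the counts below hold the same reads more than once. These are Arhgap22 with ENSMUSG00000087639, Phlda1 with ENSMUSG00000100113, Rap2b with B430305J03Rik, and Tmem154 with Gm37240. In WT PMs 4 rose and 11 fell (30.2% and 28.9% of all genes), with a median of −0.71, and in Adap-/- PMs 7 rose and 6 fell (28.5% and 26%), with a median of 0.11. After LPS, 12 were higher in Adap-/- PMs and 0 lower (6.03% and 9.78%), and in mock PMs 0 were higher and 7 lower (8.71% and 8.65%). These contrasts too share their libraries with the test that chose the genes. The response difference ran from 0.57 to 2.05, with a median of 0.96.

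Gadd45a (ENSMUSG00000036390), a gene of growth arrest after stress, had 115 and 110 CPM in WT mock, 117 and 132 in Adap-/- mock, 66.2 and 71.6 in WT LPS, and 165 and 159 in Adap-/- LPS libraries. It fell with LPS in WT PMs (−0.71) and rose in Adap-/- PMs (0.38), whose LPS libraries were the highest of all 8. Gadd45a had a response difference of 1.09 (standard error 0.16, adjusted p = 0.00179) from a peak at its stop codon and 3′ UTR. Arhgap22, which inactivates Rac, had 101 and 94.8 CPM in WT mock, 68.2 and 61.9 in Adap-/- mock, 180 and 137 in WT LPS, and 220 and 244 in Adap-/- LPS libraries. It changed places between genotypes, lower in Adap-/- before LPS and higher after it. Between the genotypes the response differed by 1.13 (standard error 0.19, adjusted p = 0.00451), and its only peak is shared with the unnamed model ENSMUSG00000087639, which has the same counts.

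Phlda1, a pleckstrin-homology protein induced by stress, had 12.02 and 11.9 CPM in WT mock, 17.3 and 13.1 in Adap-/- mock, 41.3 and 42.7 in WT LPS, and 127 and 115 in Adap-/- LPS libraries. LPS raised it in both genotypes, and the Adap-/- LPS libraries stood far above WT. The fit gave Phlda1 a response difference of 1.19 (standard error 0.25, adjusted p = 0.0204), with both peaks shared with the model ENSMUSG00000100113. Its call was lost when only its most covered peak was used.

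Pa2g4, a growth regulator, had 12.3 and 13.2 CPM in WT mock, 3.41 and 5.10 in Adap-/- mock, 5.59 and 5.06 in WT LPS, and 7.33 and 7.66 in Adap-/- LPS libraries. All levels were low, and the WT mock libraries stood out. The fit gave Pa2g4 a response difference of 2.05 (standard error 0.47, adjusted p = 0.0366). Etfrf1, a factor of mitochondrial electron transfer, had 90.0 and 102 CPM in WT mock, 76.1 and 77.2 in Adap-/- mock, 28.9 and 24.2 in WT LPS, and 40.1 and 43.0 in Adap-/- LPS libraries. It fell less in Adap-/- PMs, with a response difference of 0.96 (standard error 0.19, adjusted p = 0.0183).

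Rdh11, a retinol dehydrogenase, had 60.4 and 62.5 CPM in WT mock, 55.6 and 50.2 in Adap-/- mock, 76.4 and 69.4 in WT LPS, and 106 and 119 in Adap-/- LPS libraries. Only its LPS libraries were clearly apart, with a response difference of 0.83 (standard error 0.17, adjusted p = 0.0202). Tmem154, a membrane protein, had 267 and 282 CPM in WT mock, 176 and 189 in Adap-/- mock, 14.6 and 15.5 in WT LPS, and 20.3 and 20.4 in Adap-/- LPS libraries. LPS lowered it in both genotypes, and it started lower in Adap-/- PMs. The responses differed by 1.02 (standard error 0.20, adjusted p = 0.0168), with both peaks shared with Gm37240. The call of Tmem154 was lost when only its most covered peak was used. Of the 7 genes of higher response with these values, Gadd45a and Arhgap22 kept their call in every omission and the other 5 lost theirs in at least 1, with adjusted p of up to 0.159 for Rdh11, 0.0956 for Etfrf1, 0.0946 for Tmem154, 0.16 for Phlda1 and 0.141 for Pa2g4.

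Of 24 genes listed as inflammatory cytokines, 17 were tested. The list is not limited to pro-inflammatory genes and names Il10 and Il1rn as well. For the response difference 0 were called by edgeR (1.64% of all genes) or limma, and 6 had an unadjusted p below 0.05 (12.7% of all genes). DESeq2 called Csf1 and Tnfsf15 lower. The median was 0.07. Tnf had 303 and 309 CPM in WT mock, 366 and 471 in Adap-/- mock, 40000 and 30516 in WT LPS, and 40385 and 52957 in Adap-/- LPS libraries. The WT LPS replicates differed by almost as much as the genotypes, and the response difference was −0.05 (standard error 0.25, adjusted p = 0.957). On the linear scale the increase of Tnf was larger in Adap-/- PMs by 11300 CPM.

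Il1b had 11.3 and 9.16 CPM in WT mock, 10.5 and 13.1 in Adap-/- mock, 5981 and 4127 in WT LPS, and 8610 and 13803 in Adap-/- LPS libraries. Both Adap-/- LPS libraries were above both WT LPS libraries, with wide replicates. The response difference of Il1b was 0.94 (standard error 0.42, adjusted p = 0.357), and the genotype difference after LPS was 1.15 (adjusted p = 0.00101). Il6 had 1758 and 1083 CPM in WT LPS and 1562 and 1892 in Adap-/- LPS libraries, which overlapped, over mock levels of 0.525 to 2.30 CPM. Its response difference was 1.30 (standard error 0.99, adjusted p = 0.644), and so few mock reads leave it poorly measured.

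Other genes taken from the text of the study were not called for the response difference either. The study found Cd300lb, Pou3f1, Cish and Spry1 by another contrast, Adap-/- against WT PMs after LPS. For that contrast edgeR gave −1.22 for Cd300lb (adjusted p = 1.29e-05) and −1.66 for Pou3f1 (adjusted p = 0.00014). It gave 0.74 for Cish (adjusted p = 0.0686) and 0.47 for Spry1 (adjusted p = 0.559). Cd300lb, an activating receptor of myeloid cells, had 2058 and 2172 CPM in WT mock, 1439 and 1368 in Adap-/- mock, 96.9 and 92.9 in WT LPS, and 39.5 and 41.9 in Adap-/- LPS libraries. Adap-/- libraries were lower in both states, and the response difference was −0.63 (standard error 0.15, adjusted p = 0.055). In CPM, Cd300lb decreased less in Adap-/- PMs, by 657. It was past the threshold in DESeq2, with robust estimation, with a higher read minimum and without either WT mock replicate, with adjusted p from 0.0253 to 0.0497.

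Spry1 had 0 to 1.02 CPM in the mock libraries, 3.73 and 5.06 in WT LPS, and 6.21 and 5.83 in Adap-/- LPS libraries. Both Adap-/- LPS libraries were above both WT LPS libraries, on few reads, and the response difference was 0.22 (standard error 1.28, adjusted p = 0.962). Pou3f1 gave −0.39 (standard error 0.51, adjusted p = 0.822), with 83.6 and 57.8 CPM in WT LPS and 26.0 and 18.2 in Adap-/- LPS libraries. Cish gave 1.20 (standard error 0.79, adjusted p = 0.589). The standard errors of these 3 genes are too large to show a difference of less than several fold for Spry1, or of the size found for most called genes for Pou3f1 and Cish. Mettl3 was not analysed here, since no peak in the table belongs to it.

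The remaining lists had 0 called genes by edgeR, and the plot of all lists shows their spread. Of all tested genes 1.64% were called and 12.7% had an unadjusted p below 0.05. Immediate early and AP-1 factors (22 tested) had a median of 0.00 and 3 genes at an unadjusted p below 0.05, and ERK and MAPK feedback genes (12 tested) had −0.11 and 1. ADAP partners, integrins and adhesion genes (28 tested) had −0.06 and 6; DESeq2 and limma each called Icam1 lower. The M2 markers (7 tested) had a median of 0.03 and 3 such genes, with Msr1 lower in DESeq2. Antigen presentation genes (17 tested) had −0.11 and 0, and genes of matrix, proteases and TGF-beta latency (17 tested) had −0.29 and 8, with 1 called lower by DESeq2.

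Among housekeeping and metabolic lists, cholesterol and lipid handling (18 tested) had a median of 0.21 and 2 genes at an unadjusted p below 0.05. Genes of NRF2 and oxidative stress (11 tested) had 0.03 and 2, cell cycle genes (8 tested) 0.10 and 0, and the respiratory chain (19 tested) 0.32 and 2. Cytosolic ribosomal proteins (15 tested) had a median of 0.15 and 0 such genes. Of them 14 lay above 0 and 1 below, while 2432 of all 4742 tested genes lay below 0. For m6A regulators (12 tested) the median was −0.12 with 2 such genes, and DESeq2 and limma each called Ythdf1 lower. Macrophage identity genes had a median of −0.08. Except as stated, DESeq2 and limma called 0 members of these lists.

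**Figure D5:**
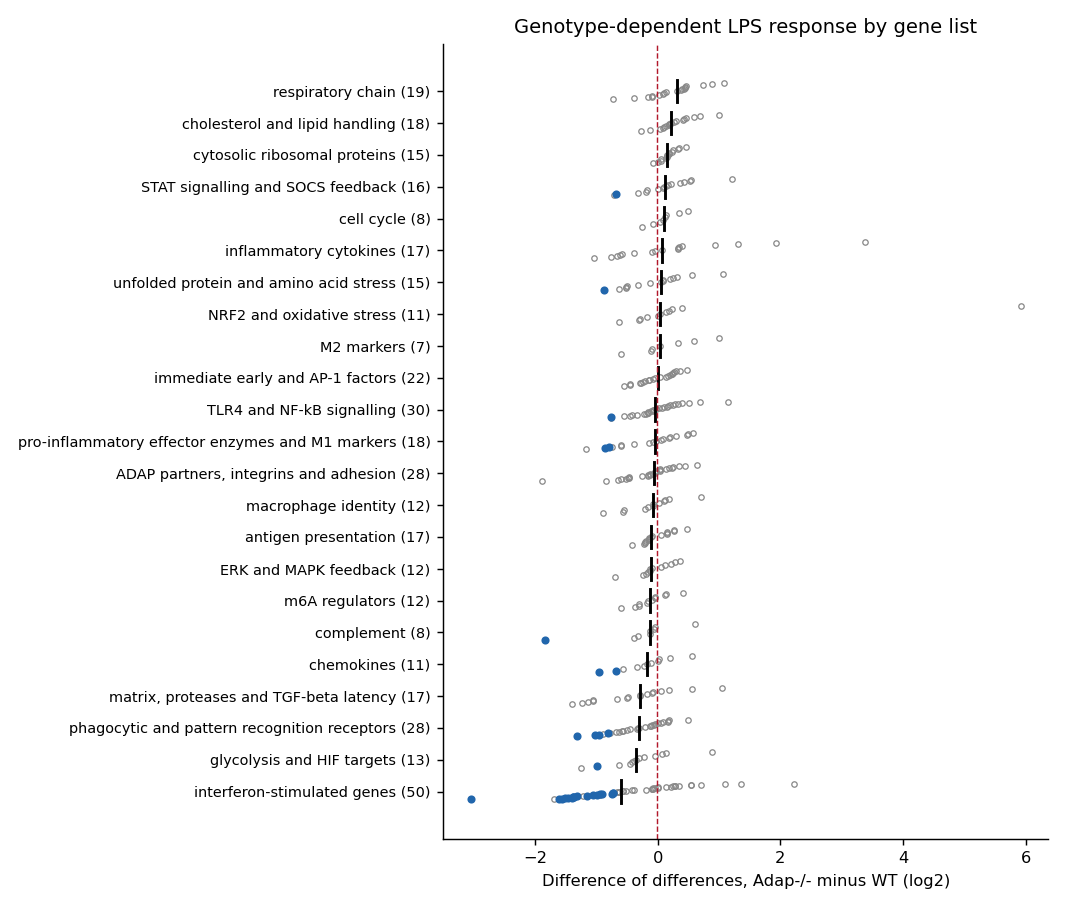
Response difference (log2, Adap-/- minus WT) of each tested member of the lists with 7 or more tested genes, with called members as filled blue and all others as open circles; black bars are list medians and the dashed line is the median of all tested genes. The interferon-stimulated list has 18 called members and the lowest median among the lists drawn, −0.59, and the open circle near 6 is Gstm2, which had 0 reads in both WT LPS libraries.

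The IP libraries, made from the same RNA as the input libraries, give a second set of counts for the same contrast. For each called gene that met the naming rule, edgeR gave an adjusted p of 1.00 there. IP values were 0.96 (standard error 0.30) for Gadd45a, 1.16 (0.52) for Arhgap22, 0.67 (0.27) for Rdh11 and 0.24 (0.38) for Phlda1. The IP value had the same sign as input for 14 of these 23 genes. It had the opposite sign for Etfrf1 (−0.29, standard error 0.36), Tmem154 (−0.42, standard error 0.40), Cfb, Gm20547, Slfn4, Slc2a6, Ccl5, Cd40 and Nfkbiz; the share of all genes with the same sign was not computed. For strongly induced genes the error was far larger, as for Ifit3b (−0.09, standard error 1.46) and Slfn4 (0.05, standard error 1.88). Mock replicates of the IP libraries stood apart at induced genes, WT mock replicate 1 and Adap-/- mock replicate 2 being high. For Tnf, IP mock levels were 9205 and 388 CPM in WT and 821 and 9547 in Adap-/- libraries, and for Ifit3 they were 1770 and 162 in WT and 239 and 875 in Adap-/- libraries. The cause was not tested. The IP counts could not show differences of the size seen in input for those genes.

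Each group had 2 replicates, and 6 of 8 omissions of a library lowered the count of calls below 50. Sums over peaks leave out transcripts with no peak, 12 of the 78 called genes had only peaks shared with another gene, and PCR copies were not marked, so errors cover what the counts show. LPS libraries held a larger share of reads in a few induced genes, with TMM factors of 0.651 to 0.737 against 1.39 to 1.51 in mock libraries. A response difference in fold depends on the mock level, which differed between the genotypes for 45 of the 61 genes of lower response.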

How the data were processed

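The deposited table, made by the authors, holds raw read counts per merged peak in 16 libraries; Bowtie2 2.2.8, MACS2 2.1.2, DiffBind 2.8 and GRCm39 are named in the submitters' processing notes. Its 8094 lines reduce to 7069 distinct peaks. Input counts were summed over the peaks of each of 4943 genes, a shared peak counting for each of its genes. For 66 genes whose symbol column held another name, the name in the description was used. In R 4.3.3, edgeR 4.0.16 (TMM, filterByExpr with a minimum count of 10 and total of 15, 1 mean per group, quasi-likelihood F test, Benjamini-Hochberg over all 4742 tested genes) tested the interaction; the biological coefficient of variation was 8.82%. Standard errors come from the log2 value and F. Steps were tested on simulated data. Spearman correlations between replicates across genes were 0.987 to 0.990. Genes named by rule are those the paper names, the 8 highest and 8 lowest called response differences with a symbol and separate replicates, and the extreme called members of each list. Some genes that met this rule are not reported here. Members and lists were chosen with earlier results of these data known. Alternatives used DESeq2 1.42.0, limma 3.58.1, other scalings, filters, peak choices and omissions. Promoters on chromosome 18 were left out of the search. Figures used Python 3.11 and matplotlib 3.10.9.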

Additional observations from a re-analysis of the deposited data

Results flagged for a closer look

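For the genes listed here, which were named by rule, a test of the difference itself (the interaction term) showed LPS effects that differed between the genotypes. The lower response in Adap-/- PMs was −3.04 for Ifit3b, −1.92 for Ifi213, −1.83 for Cfb, −1.83 for the overlapping model Gm20547, −1.74 for Slfn4, −1.61 for Ifit3, −1.60 for Tarm1 and −1.32 for Clec4e. Smaller values of this sign were −0.99 for Slc2a6, −0.95 for Ccl5, −0.87 for Nupr1, −0.85 for Cd40, −0.76 for Nfkbiz and −0.68 for Jak2. The higher response was 0.83 for Rdh11, 0.96 for Etfrf1, 1.02 for Tmem154, 1.09 for Gadd45a, 1.13 for Arhgap22, 1.19 for Phlda1 and 2.05 for Pa2g4. All are log2 differences of the LPS responses, Adap-/- minus WT, each with an adjusted p below 0.05 from edgeR. Most of these calls were lost in some of the alternative fits, as given with the genes above. The values of Cfb and Gm20547 come from the same reads.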

How the results depend on the processing

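The count of 78 called genes was 100 with DESeq2 (11 higher, 89 lower), 85 with limma, 104 with robust estimation, 77 with RLE and 73 with upper-quartile scaling, 76 without a read minimum, 79 with a mean of at least 50 reads, 76 with peaks of 1 gene only and 54 with the most covered peak only. With the replicate number as a block it was 79. The omissions gave 29 to 127: 42 without either Adap-/- LPS replicate, 48 and 29 without Adap-/- mock replicates 1 and 2, 46 and 40 (4 higher, 36 lower) without WT LPS replicates 1 and 2, and 127 and 90 without WT mock replicates 1 and 2. In these fits the lone library is assumed to vary like the other groups, and the cause of the changes was not tested. The count above 2-fold, 36, was 28 to 54 in the omissions, 40 with the block and 76 with a limit of 1.5-fold, which by construction admits smaller differences. The median of all genes stayed between −0.03 and 0.01 in all fits, and 10 to 21 interferon-list genes were called lower. Interferon-list genes were called higher only in the fit without WT mock replicate 1, with values of 0.58 (Gbp3) to 2.93 (Tgtp2).

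Of 581 values of named genes under the alternatives, 494 kept direction and side of the threshold, 68 lost and 5 gained the call. Directions turned in 14. On the linear scale the difference in CPM was 205.4 for Cfb and Gm20547, 1751 for Slfn4, 233 for Tarm1, 193 for Ccl5 and 126 for Nfkbiz, all called lower in fold, and 11300 for Tnf and 657 for Cd300lb, which were not called. Tnf, near 0, turned to 0.13 on leaving out Adap-/- LPS replicate 1, to 0.16 on leaving out Adap-/- mock replicate 2 and to 0.16 on leaving out WT LPS replicate 1; it was −0.26 when the second Adap-/- LPS library was dropped. Spry1, on few mock reads, gave −0.44 with limma, −0.07 without Adap-/- mock replicate 2, −3.71 without WT mock replicate 1 and 1.15 without WT mock replicate 2. The labels do not say whether replicate numbers pair across groups. The correlation of replicate differences across genes, which are not independent, was −0.0776 to 0.164, highest between Adap-/- LPS and Adap-/- mock. With 2 replicates in a group it cannot settle the pairing.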
